A study of Mus musculus with 12 samples.

Results

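The 10 genes described here belong to the liver X receptor (LXR) pathway of cholesterol efflux: the receptors Nr1h3 (LXR alpha) and Nr1h2 (LXR beta), the membrane transporters Abca1, Abcg1 and Scarb1, the lipoprotein proteins Apoe and Pltp, the esterifying enzyme Soat1, the oxysterol-making enzyme Ch25h, and Mylip, a ubiquitin ligase that marks lipoprotein receptors for degradation. They were taken by symbol from a count table of 24422 features, in which each was found once, and all 10 were among the 16713 genes with enough reads to be tested. RNA-seq was made from mouse adipose tissue, from its stromal vascular fraction, which is what is left once the fat-filled adipocytes are removed and holds adipose progenitors, blood vessel cells and macrophages. The 12 libraries form 4 groups of 3. SD mCherry (replicates 1, 2 and 3) has the genotype p21+/mcherry and was fed a standard diet, and HFD mCherry (replicates 15, 17 and 20) shares that genotype but ate a high-fat diet. The group HFD Tert (replicates 25, 26 and 27) is p21+/mcherry-Tert and HFD TertCi (replicates 30, 31 and 33) is p21+/mcherry-TertCi, both on the high-fat diet. TertCi is a catalytically inactive form of Tert, the protein subunit of telomerase. Every group, the controls included, carries an inserted cassette in 1 copy of p21 (Cdkn1a). The p21 promoter drives the cassette, so Tert from a knock-in cassette is made only where and when that promoter is active. The sample titles call the controls P21het, and the design text names the high-fat control p21+/- whereas the sample labels give it the mCherry allele. Age, sex, fat depot and length of the diet are not given in the sources used here. The labels do not say that replicates are separate animals, so p-values measure the spread between these libraries.

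LXRs are nuclear receptors that bind oxysterols, the oxidised forms of cholesterol, and act on DNA as a pair with a retinoid X receptor. When a cell holds much cholesterol they switch on the export genes: ABCA1 hands cholesterol and phospholipid to lipid-poor apolipoproteins, ABCG1 passes it to formed HDL, apolipoprotein E carries it away and MYLIP (IDOL) lowers uptake by removing lipoprotein receptors. In fat tissue this programme is best known from macrophages, which take up lipid released by adipocytes.

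The classical LXR response element is a DR4 repeat, 2 copies of the hexamer AGGTCA read in the same direction with 4 bases between them, and Abca1 is a textbook LXR target through such an element close to its start. RefSeq promoter windows of build GRCm38.p6, each 300 bases long (250 before to 50 after a start), were matched for 8 of the 10 genes (11 windows). Each window was searched on both strands for the stretch that came closest to the repeat. The 5 stretches below are from genes described at length in the results, printed 5′ to 3′ in the direction of the match, with the 2 hexamers in capitals.
Abca1: agcgccgGGGTTActacCGGTCAaacgctg
Nr1h3: ggagcaaAGGTCCcggcACGGCCcggaatt
Soat1: acgccgcAGGACCaccaATGGCAtcccgga
Pltp: gtgAGGAAActgaGGCTCCgcagcca
Apoe: ctctcccCCTTCAcagcAGGGCAgaggaaa
The Abca1 stretch matched 9 of the 12 hexamer bases, with its repeat at chr4:53159947-53159962, centred 60 bases before the start. Of all 32851 promoter windows, 21.9% held a stretch with at most 3 mismatches. Nr1h3 (repeat at chr2:91195151-91195166), Soat1 (chr1:156474350-156474365) and Apoe (chr7:19699166-19699181) matched 8 of 12 bases (for Apoe the window at the gene's 5′ end is shown, 1 of 3), a closeness that 76.9% of windows reached. The Pltp stretch (chr2:164857940-164857955) matched 7 of 12, as 99.8% of windows did at least. Among these 5, then, the Abca1 window came nearest to the repeat, and the closeness of the other 4 is common to most promoters. These are descriptions of letters in short windows and say nothing on where the receptors bind.

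The libraries held 16430330 to 19486965 counts over 16231 to 19147 genes. Tert was at 0.463 to 3.97 CPM (counts scaled to a common library total) in the mCherry libraries and at 6.99 to 16.6 CPM in the knock-in libraries, and the added mCherry_Tert feature had 0 counts in the former and 33 to 86 in the latter. The progenitor marker Dcn (1439 to 4507 CPM), the macrophage marker Csf1r (20.7 to 307 CPM) and the endothelial marker Pecam1 (176 to 1134 CPM) were present in every library. Of the adipocyte genes, Adipoq reached 7.85, Plin1 5.32 and Lep 12.1 CPM at most, while the whole list of 10 adipocyte markers summed to 344 to 661 CPM in SD mCherry, 1025 to 1900 in HFD mCherry and 897 to 6395 over the knock-in libraries. Crisp1, a gene of the epididymis, was at 641 to 14780 CPM in 8 libraries and at 0 to 0.529 CPM in the other 4, which are SD mCherry replicate 2, HFD mCherry replicate 20, HFD Tert replicate 27 and HFD TertCi replicate 31. Each group therefore has 1 library without it. The values without these 4, from the 8 libraries that carry Crisp1 (2 in each group), are given below beside the calls. Crisp1 does not stand for all epididymal markers. The 12 on the list summed to 3615 CPM in SD mCherry replicate 2, which lacks Crisp1, and to 2042 CPM in HFD mCherry replicate 17, which has it.

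**Figure D1:**
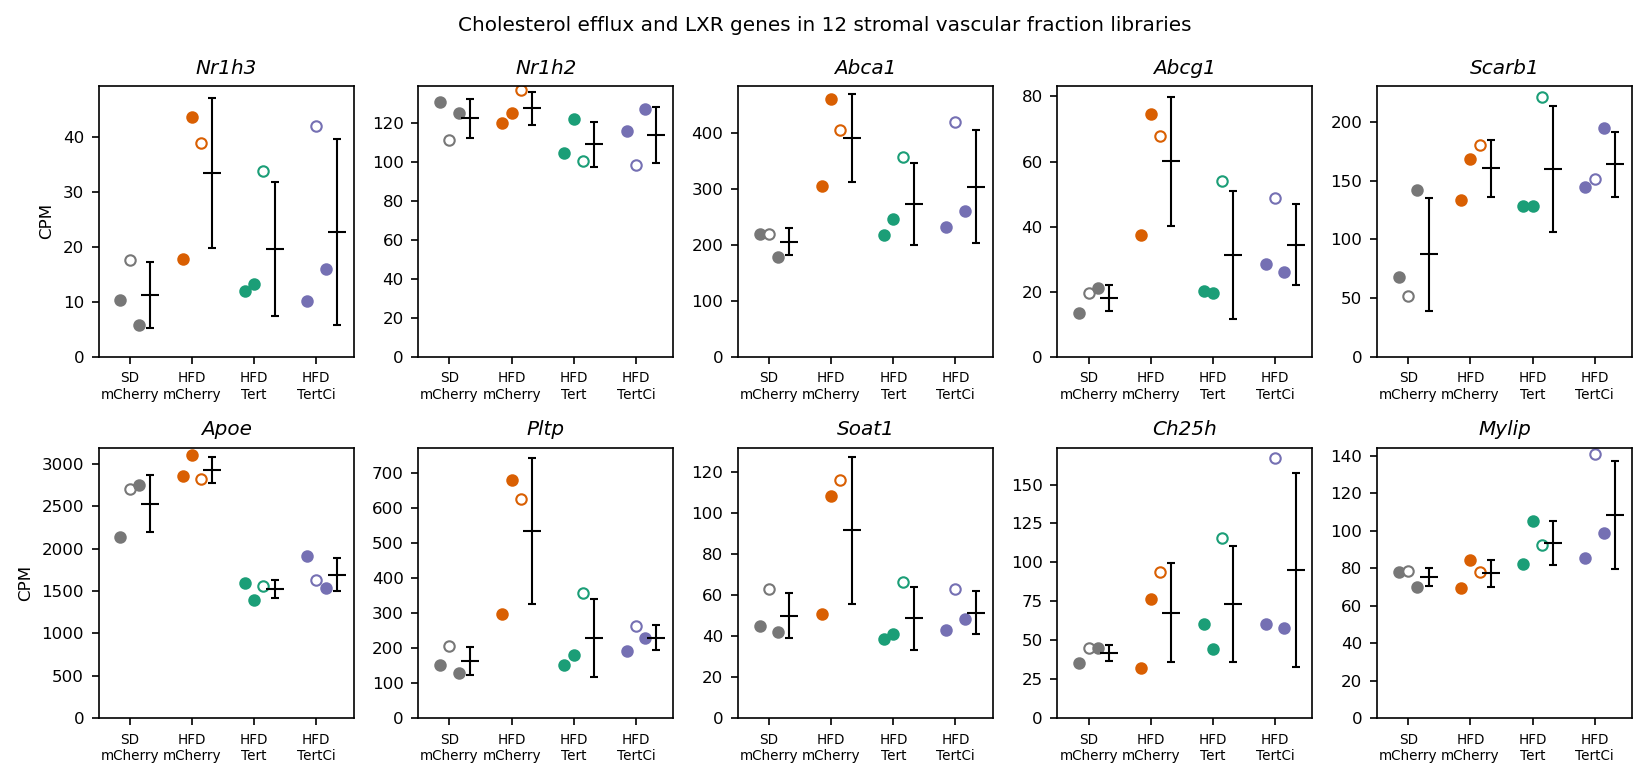
Level of each of the 10 genes in CPM (y axis from 0) in the 12 libraries by group (x axis). Points are libraries, open points are the 4 libraries without Crisp1, and the bar with whiskers is the group mean and SD (n = 3). For Apoe the 6 knock-in libraries (1398 to 1908 CPM) lie under all 6 mCherry libraries (2141 to 3105 CPM), and for Abca1, Abcg1 and Pltp the HFD mCherry libraries lie above the SD mCherry libraries.

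On the high-fat diet the mCherry controls had higher levels of the export transporters, of the phospholipid transfer protein and of LXR alpha: Abcg1 was 3.31-fold, Pltp 3.29-fold, Nr1h3 2.96-fold and Abca1 1.90-fold higher in HFD mCherry than in SD mCherry. LXR beta and Mylip were nearly level between the diets, with log2 fold changes of 0.06 and 0.04. All 10 genes had a log2 fold change above 0 (median 0.88), against a median of −0.08 over all genes tested. None of the 10 was called by edgeR's quasi-likelihood test at a Benjamini-Hochberg adjusted p under 0.05 over all genes, a threshold that 8 of the 16713 genes passed (0.0479%). At an unadjusted p under 0.05, 6 of the 10 were higher and 0 lower, where 14.1% of all genes were higher and 10% lower. The libraries of the diets did not overlap for 5 genes, all higher (Nr1h3, Abca1, Abcg1, Apoe and Pltp), against 13.9% of all genes in that direction. DESeq2, which called 8.5% of its genes higher, called Abca1, Abcg1 and Pltp higher (adjusted p 0.0307, 0.00711 and 0.00132).

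Nr1h3, the oxysterol-sensing receptor most abundant in macrophages, adipose tissue and liver, lies at chr2:91184061-91202834 (GENCODE M21, mm10). It was at 10.4, 17.7 and 5.79 CPM in SD mCherry against 17.8, 43.7 and 38.8 in HFD mCherry, with 11.9, 13.2 and 33.7 in HFD Tert and 10.2, 42.0 and 15.9 for HFD TertCi. The diet groups were separated only narrowly, by SD mCherry replicate 2 and HFD mCherry replicate 15, and 1 library stood high in each knock-in group. The diet log2 fold change was 1.57 ± 0.64 (SE, edgeR adjusted p = 0.176). Against HFD mCherry it was −0.77 ± 0.62 in HFD Tert and −0.56 ± 0.62 in HFD TertCi (edgeR adjusted p 0.551 and 0.700). Single libraries moved these values, to −1.41 without HFD Tert replicate 27 and to −1.35 without HFD TertCi replicate 31. Nr1h2, the broadly expressed LXR beta at chr7:44549616-44553951, stayed between 98.3 and 137 CPM in all 12 libraries. Its group means were 122 ± 10.1, 127 ± 8.68, 109 ± 11.5 and 114 ± 14.5 CPM (SD, n = 3) for SD mCherry, then HFD mCherry, HFD Tert and last HFD TertCi, and every neighbouring pair overlapped. Per kilobase of exon, LXR beta exceeded LXR alpha in all groups, with 36.5 against 4.48 CPM per kb in SD mCherry and 38.0 against 13.3 in HFD mCherry.

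Abca1, the transporter that loads lipid onto apolipoprotein A-I, spans chr4:53030787-53159895. It was at 219.9, 219 and 178 CPM in SD mCherry and 306, 461 and 406 CPM in HFD mCherry, so every high-fat control library exceeded every standard-diet one. The HFD Tert libraries were at 218, 246 and 357 CPM and the HFD TertCi libraries at 232, 419 and 260.2 CPM, both ranges overlapping HFD mCherry. In each knock-in group the library without Crisp1 was the highest, at 357 and 419 CPM. The diet log2 fold change was 0.93 ± 0.29 (SE, edgeR adjusted p = 0.106), and the changes against HFD mCherry were −0.51 ± 0.28 in HFD Tert and −0.36 ± 0.28 in HFD TertCi (edgeR adjusted p 0.383 and 0.570).

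Abcg1, which moves cholesterol to HDL particles, lies at chr17:31057675-31117988. It was counted at 13.6, 19.5 and 21.3 CPM in SD mCherry against 37.5, 74.7 and 67.8 in HFD mCherry, with 20.1, 19.8 and 54.1 in HFD Tert and 28.6, 48.7 and 26 for HFD TertCi. The 2 diet groups were apart, while 1 library of each knock-in group reached into the HFD mCherry range. Its diet log2 fold change of 1.73 ± 0.45 (SE, edgeR adjusted p = 0.0766) was the highest of the 10. In HFD Tert and HFD TertCi it was −0.94 ± 0.44 and −0.80 ± 0.44 relative to HFD mCherry (edgeR adjusted p 0.317 and 0.420), and the former was −1.59 without HFD Tert replicate 27. Abca1 was 11.9 ± 3.95 times Abcg1 in CPM in SD mCherry and 6.77 ± 1.20 times in HFD mCherry (SD, n = 3), with the knock-in groups at 9.97 ± 3.02 and 8.92 ± 0.97.

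Scarb1 encodes SR-BI, the HDL receptor through which cholesterol passes in either direction, at chr5:125277087-125341094. Levels were 68.3, 51.4 and 142 CPM in SD mCherry against 133, 168 and 180.4 in HFD mCherry, with 129, 128 and 221 in HFD Tert and 145, 151 and 195 for HFD TertCi. SD mCherry replicate 3 reached into the ranges of HFD mCherry and HFD Tert but lay just under that of HFD TertCi, and the 3 high-fat groups overlapped one another. Its diet log2 fold change was 0.88 ± 0.37 (SE, edgeR adjusted p = 0.183) and ran from 0.61 without SD mCherry replicate 2 to 1.42 without replicate 3, and the knock-in values were −0.01 ± 0.36 and 0.03 ± 0.36 (edgeR adjusted p 0.992 and 0.981). Scarb1 thus showed the diet difference in its means but no difference of the knock-in groups from HFD mCherry beyond an error of about 0.36 on the log2 scale.

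Apoe was the most abundant of the 10 per length of transcript. Its group means had the same order as those of Nr1h2, but only for Apoe did all knock-in libraries lie under all mCherry libraries. Apolipoprotein E, the cholesterol acceptor secreted by macrophages and many other stromal cells, is encoded at chr7:19696109-19699188, and in macrophages LXRs act on it through enhancers far from the promoter window shown above. The libraries were at 2141, 2696 and 2746 CPM in SD mCherry against 2859, 3105 and 2823 in HFD mCherry, with 1599, 1398 and 1561 in HFD Tert and 1908, 1634 and 1532 for HFD TertCi. Every knock-in library was lower than every mCherry library of either diet, while HFD mCherry lay just above SD mCherry and the 2 knock-in groups overlapped. This separation of 6 from 6 libraries, noticed after the values were seen, was met by 0.67% of all genes tested in the lower direction and 0.646% in the higher, and by none of the other 9 genes in either direction. Group means were 2528 ± 336, 2929 ± 154, 1519 ± 107 and 1691 ± 195 CPM (SD, n = 3) for SD mCherry, then HFD mCherry, HFD Tert and last HFD TertCi.

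Against HFD mCherry, Apoe was 1.93-fold lower in HFD Tert (log2 fold change −0.95 ± 0.22, SE) and 1.73-fold lower in HFD TertCi (−0.79 ± 0.22), with edgeR adjusted p of 0.187 and 0.203. By unadjusted p it was number 111 of the 16713 genes in HFD Tert and number 350 in HFD TertCi. DESeq2 called it lower in both (adjusted p 9.09e-06 and 0.000569). In comparisons with SD mCherry, added after the values were seen, the log2 fold changes were −0.73 ± 0.22 in HFD Tert and −0.58 ± 0.22 in HFD TertCi (edgeR adjusted p 0.180 and 0.274, DESeq2 0.000472 and 0.0164). Of all genes, 8.87% were lower in HFD Tert and 7.92% in HFD TertCi at an unadjusted p under 0.05 in those comparisons, Apoe among them. The diet difference was 0.21 ± 0.22 (SE, edgeR adjusted p = 0.553), within its error. Over the 12 fits that each left out 1 library, the HFD Tert value ran from −0.99 to −0.89 and the HFD TertCi value from −0.89 to −0.73. With the level of the macrophage list as a covariate the values were −0.92 and −0.77 (edgeR adjusted p 0.112 and 0.171). Without the 4 libraries that lack Crisp1 they were −0.99 and −0.80 (edgeR adjusted p 0.243 and 0.469), and those 4 libraries alone gave 2696, 2823, 1561 and 1634 CPM for SD mCherry, then HFD mCherry, HFD Tert and last HFD TertCi.

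Pltp, the plasma phospholipid transfer protein that remodels HDL and supplies lipid to it, is at chr2:164839518-164857711. It was at 152, 206 and 128 CPM in SD mCherry against 297, 679 and 625 in HFD mCherry, with 152, 179 and 356 in HFD Tert and 193, 264 and 229.9 for HFD TertCi. HFD mCherry stood above SD mCherry and HFD TertCi without overlap, and only replicate 27 of HFD Tert (356 CPM) reached into its range. The diet log2 fold change was 1.72 ± 0.39 and those of the knock-in groups −1.22 ± 0.39 each (SE, edgeR adjusted p 0.0708, 0.217 and 0.231). Exons of Pltp overlap those of Ctsa, a lysosomal carboxypeptidase gene on the opposite strand, by 495 bases, and the use of strand in the counting is not given in the sources used here, so reads of the pair may not be fully separated. Ctsa itself was at 198 ± 24.1 CPM in SD mCherry against 592 ± 239 in HFD mCherry, with 255 ± 89.5 in HFD Tert and 237 ± 42.0 for HFD TertCi (SD, n = 3), nearly the levels and the order of Pltp.

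Soat1 (ACAT1), which esterifies free cholesterol for storage in droplets, is at chr1:156424525-156474331. Its levels were 45.3, 62.9 and 42.3 CPM in SD mCherry against 50.7, 108 and 116 in HFD mCherry, with 38.9, 40.9 and 66.5 in HFD Tert and 42.8, 63.1 and 48.3 for HFD TertCi. Replicates 17 and 20 of HFD mCherry were above all other libraries, and replicate 15 lay among those of the other groups. The log2 fold change was 0.87 ± 0.34 for the diet, −0.91 ± 0.34 for HFD Tert and −0.83 ± 0.34 for HFD TertCi (SE, edgeR adjusted p 0.163, 0.242 and 0.292). Soat1 and Pltp had an unadjusted p under 0.05 in all 3 of these comparisons, which share the HFD mCherry libraries.

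Ch25h and Mylip had their highest mean in HFD TertCi, not in HFD mCherry. Ch25h, the cholesterol 25-hydroxylase that macrophages induce with interferon, lies at chr19:34473778-34475164 and was at 35.7, 44.8 and 45.1 CPM in SD mCherry. It was at 32.4, 76.5 and 94.1 CPM in HFD mCherry, with 60.3, 44.6 and 116 in HFD Tert and 60.5, 167 and 57.8 for HFD TertCi. The lowest of the 12 libraries was a high-fat control, the highest was the HFD TertCi library without Crisp1, and SD mCherry and HFD TertCi were the only groups that did not overlap. Its log2 fold changes of 0.69 ± 0.51 for the diet, 0.12 ± 0.51 for HFD Tert and 0.49 ± 0.51 for HFD TertCi were small beside their errors (SE, edgeR adjusted p 0.408, 0.930 and 0.678), and the last was −0.19 without HFD TertCi replicate 31. Mylip, at chr13:45389742-45412022, was between 69.7 and 84.2 CPM in the 6 mCherry libraries, at 82.1, 105 and 92.6 CPM in HFD Tert and at 85.7, 141 and 99.1 CPM in HFD TertCi. All HFD TertCi libraries were above all mCherry libraries, and HFD Tert overlapped HFD mCherry in replicate 25 only. The log2 fold change was 0.49 ± 0.20 in HFD TertCi and 0.27 ± 0.20 in HFD Tert (SE, edgeR adjusted p 0.305 and 0.513), and without HFD TertCi replicate 31 the former was 0.26.

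**Figure D2:**
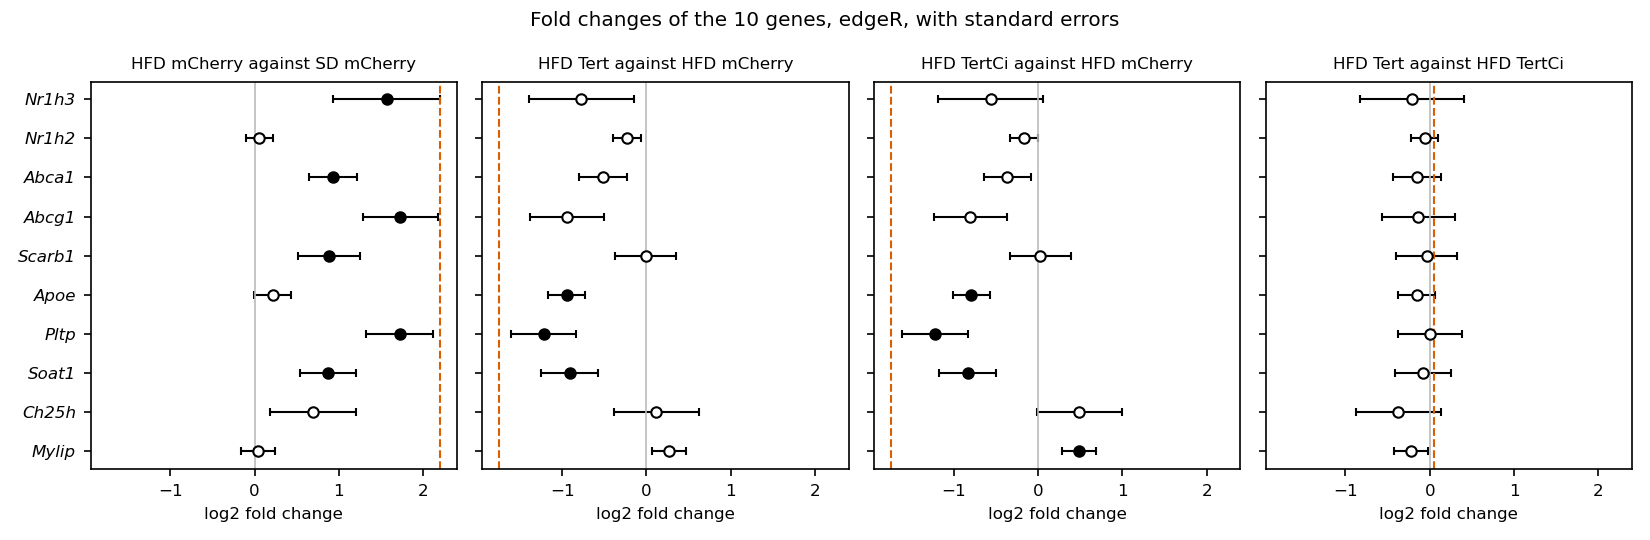
Log2 fold change (x axis) of the 10 genes (rows) in the 4 comparisons (panels), from edgeR, with its standard error as a bar. Filled points have an unadjusted p under 0.05, none passed after adjustment, and the dashed line is the median of the 14 macrophage markers. Pltp and Soat1 are filled in the diet panel and in both knock-in panels, on opposite sides of 0, and no point is filled in the comparison of HFD Tert with HFD TertCi.

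For the knock-in groups, then, the values against HFD mCherry were lower for most of the 10 genes, and Apoe, Pltp and Soat1 had the lowest unadjusted p. In HFD Tert 8 of the 10 had a log2 fold change under 0 (median −0.64, all genes −0.05). EdgeR called 0 of the 10 and 0 of the 16713 genes, 3 of the 10 were lower at an unadjusted p under 0.05 (9.75% of all genes), and DESeq2 called 1 lower, Apoe (3.26% of all genes). The libraries did not overlap for 1 gene, Apoe, in the lower direction, against 11.1% of all genes. In HFD TertCi 7 of the 10 were under 0 (median −0.46, all genes −0.04). EdgeR called 0 of the 10 (0.012% of all genes), 3 were lower and 1, Mylip, higher at an unadjusted p under 0.05 (8.92% and 5.76% of all genes), and DESeq2 called 1 lower, Apoe (2.94%). Apoe and Pltp did not overlap in the lower direction (12% of all genes) and Mylip in the higher (9.45%). The shares without overlap, 1 and 2 lower genes of 10, were thus near those of all genes.

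HFD Tert and HFD TertCi differ by the catalytic activity of Tert, and their direct comparison called none of the 10 genes. Log2 fold changes of HFD Tert against HFD TertCi ran from −0.37 for Ch25h to 0.00 for Pltp, with a median of −0.14. EdgeR called 0 of the 16713 genes and DESeq2 0 of the 10 (0.0423% of all genes), and 0 of the 10 had an unadjusted p under 0.05 against 1.36% of all genes. The libraries of the 2 groups overlapped for every one of the 10, where 2.55% of all genes were higher and 2.58% lower without overlap. The standard errors, from 0.16 for Nr1h2 to 0.62 for Nr1h3, leave room for differences of that size. In an F-test over all 4 groups edgeR called 0 of the 10 (0.012% of all genes), and 4 had an unadjusted p under 0.05 (20.2%). The likelihood ratio test of DESeq2 over the 4 groups called Abcg1, Apoe and Pltp (14.5%).

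Markers of several cell types moved with some of these genes, macrophage and progenitor markers among them. In bulk RNA, fewer cells of a type and less RNA per cell cannot be told apart. The summed level of the 14 markers was 1219 to 1443 CPM in SD mCherry against 2767 to 6914 in HFD mCherry, with 1018 to 2823 in HFD Tert and 1318 to 2023 for HFD TertCi, and none of the 14 was at 0 in a whole group. At an unadjusted p under 0.05, 13 of the 14 were higher on the high-fat diet and 12 were lower in each knock-in group, with median log2 fold changes of 2.19, −1.75 and −1.75, and edgeR called 0 of them. Of the 10 genes none reached the median of the list in any of the 3 comparisons. The 11 progenitor markers summed to 2866 to 4602 CPM in SD mCherry against 7408 to 21706 in HFD mCherry, with 4397 to 10612 in HFD Tert and 3977 to 7442 for HFD TertCi. They had 9 genes higher on the diet and 4 lower in each knock-in group at an unadjusted p under 0.05. Of these, Pdgfra (chosen after its values were seen) fell in HFD TertCi by 1.84 on the log2 scale (edgeR adjusted p = 0.0426). It was also lower in HFD Tert, at 61.3 to 89.6 CPM against 198 to 232 CPM in HFD mCherry. In HFD Tert edgeR called none of the progenitor markers (smallest adjusted p 0.123). As a description over the 12 libraries, which share groups and cell make-up, Pearson's r with the mean log2 CPM of the macrophage and of the progenitor list was 0.823 and 0.913 for Nr1h3, 0.864 and 0.912 for Abca1, 0.889 and 0.832 for Abcg1, 0.965 and 0.957 for Pltp and 0.925 and 0.893 for Soat1. It was 0.178 and 0.109 for Nr1h2, 0.394 and 0.397 for Scarb1, 0.441 and 0.524 for Ch25h and −0.0904 and 0.168 for Mylip. With the endothelial list r was 0.820 for Ch25h, 0.824 for Mylip and −0.621 for Apoe. For Nr1h3, Abca1, Abcg1, Pltp and Soat1, r with the epididymal markers ran from −0.759 to −0.573. For Apoe, r with the macrophage and the progenitor list was 0.527 and 0.221, and with the adipocyte list −0.776. In the knock-in groups that list had 5 of 10 genes higher in HFD Tert and 3 in HFD TertCi at an unadjusted p under 0.05, and 0 lower. EdgeR called none of them and DESeq2 called 3 and 2 higher. Over all genes, 14.1% were higher on the diet at an unadjusted p under 0.05. In HFD Tert 9.75% were lower and 6.62% higher, and in HFD TertCi 8.92% and 5.76%. Endothelial markers were at 1020 to 1425 CPM in SD mCherry and at 1849 to 6124 CPM over the 9 high-fat libraries, and the 6 mesothelial markers were at 281 to 323 CPM in HFD mCherry and 634 to 1625 CPM in the knock-in groups. The part of progenitor, adipocyte, endothelial and mesothelial cells in the differences of the 10 genes was not tested.

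With the level of the macrophage list as a covariate, Abca1 had a diet log2 fold change of 0.00, Abcg1 0.08, Pltp 0.19, Soat1 −0.44 and Nr1h3 −0.74. In the same fit the knock-in values of these 5 turned to the other side of 0, for example 0.14 and 0.065 for Pltp and 0.29 and 0.25 for Soat1 in HFD Tert and HFD TertCi. Among those of the 10 genes with an unadjusted p under 0.05 and lower in the knock-in groups, Apoe was the exception, staying at −0.92 and −0.77. Pathway genes described below also stayed under 0, such as Lipa (−0.26 and −0.41), Nceh1 (−0.36 and −0.47) and Insig1 (−1.56 and −1.36). Lpl and Msr1 turned above 0. Relative to the mean log2 CPM of the list, Abca1 was at 2.20 ± 0.15 in SD mCherry against 1.04 ± 0.41 in HFD mCherry, with 2.43 ± 0.68 in HFD Tert and 2.36 ± 0.13 for HFD TertCi (log2 difference, SD, n = 3). On that scale every one of the 10 genes was lowest in HFD mCherry, where the subtracted list mean was highest. Nr1h2, level in CPM, went from 1.45 ± 0.38 in SD mCherry to −0.56 ± 0.65 in HFD mCherry (SD, n = 3). The low place of HFD mCherry is thus set by the list and is no finding about Abca1. Nr1h3 stood at −2.11 ± 0.50, −2.58 ± 0.03, −1.50 ± 0.33 and −1.59 ± 0.66 in the same order.

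**Figure D3:**
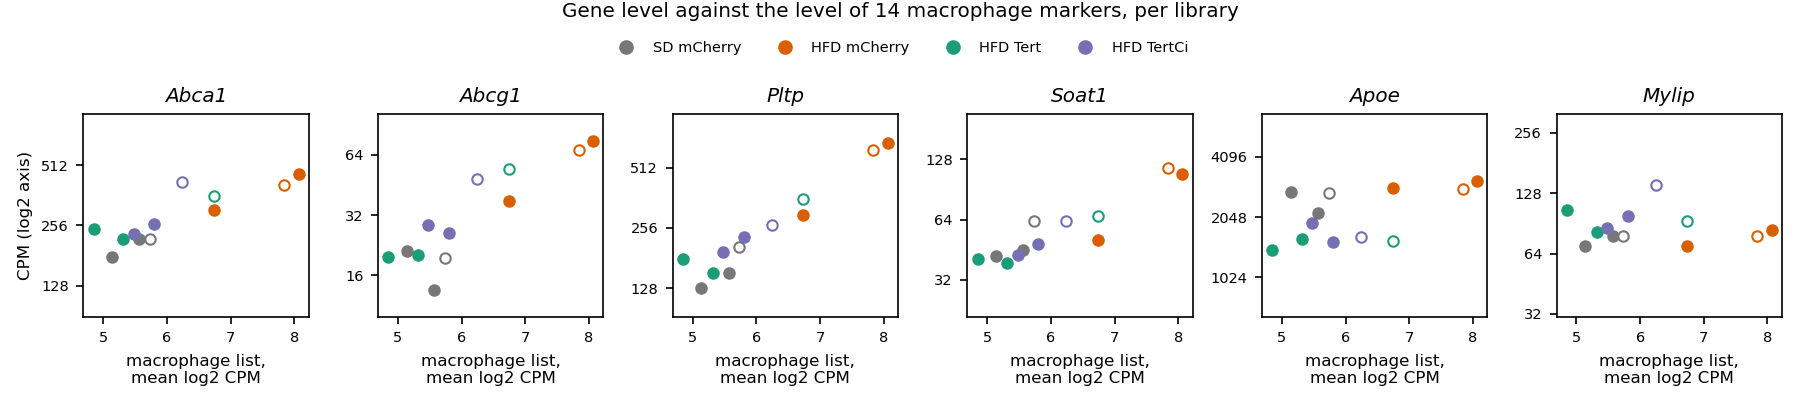
Level of 6 of the genes (y axis, CPM on a log2 scale) against the mean log2 CPM of the 14 macrophage markers (x axis) in the 12 libraries, coloured by group, with open points for the 4 libraries without Crisp1. Abcg1, Pltp and Soat1 are highest in HFD mCherry replicates 17 and 20, where the markers are highest. Abca1 is highest in HFD mCherry replicate 17 (461 CPM) and then in HFD TertCi replicate 31 (419 CPM). The Apoe points of the knock-in groups (1398 to 1908 CPM) lie under all mCherry points (2141 to 3105 CPM). On the x axis the knock-in libraries reach 6.74 at most, while HFD mCherry replicates 17 and 20 lie at 8.07 and 7.84.

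The epididymal signal and single libraries bore on the calls. In the 8 libraries with Crisp1 the diet log2 fold changes were 1.91 for Nr1h3, 0.94 for Abca1, 1.68 for Abcg1 and 1.79 for Pltp, while that of Scarb1 was 0.51 and not 0.88. The knock-in values for HFD Tert and HFD TertCi were further from 0 there for Nr1h3 (−1.29 and −1.23), Abca1 (−0.72 and −0.64) and Abcg1 (−1.49 and −1.04). EdgeR called 0 of the 10 in these libraries, and 0 of all genes in every comparison. With Crisp1 presence as a term in the model, edgeR called Abca1, Abcg1, Nr1h3 and Pltp higher on the diet (adjusted p 0.0371, 0.0217, 0.0330 and 0.0209), where 1508 genes were called in all. With the level of the epididymal list as a covariate it called those 4 and Soat1 for the diet among 1407 genes. It called Apoe, Pltp and Soat1 lower in HFD Tert (adjusted p 0.0196, 0.00691 and 0.00709) among 802 genes, and Pltp and Soat1 lower in HFD TertCi among 420 genes. Without HFD mCherry replicate 15, the high-fat control with the lowest macrophage sum, the diet calls were Abca1, Abcg1, Pltp and Soat1 among 2082 genes. Without HFD Tert replicate 27 they were Abcg1 and Pltp among 686 genes.

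Other genes of cholesterol handling were read from 4 lists, chosen by role. Their edgeR counts were 0 in every comparison, so the numbers here are of genes with an unadjusted p under 0.05. They stand beside shares over all genes of 14.1% higher and 10% lower on the diet, 6.62% and 9.75% in HFD Tert and 5.76% and 8.92% in HFD TertCi. Of 17 tested LXR partners and other LXR-responsive genes, 3 were higher on the high-fat diet and 0 lower (median log2 fold change −0.12), near the 14.1% of all genes. Lpl, lipoprotein lipase, led at 142 ± 61.7 CPM in SD mCherry and 1929 ± 1068 in HFD mCherry (SD, n = 3), a log2 fold change of 3.77 ± 0.90 (SE, edgeR adjusted p = 0.0728) that DESeq2 called. It was at 499 ± 547 CPM in HFD Tert and 377 ± 269 CPM in HFD TertCi (SD, n = 3). Srebf1, the LXR target that governs fatty acid synthesis, was at 239 ± 84.7, 149 ± 90.8, 90.1 ± 25.3 and 113 ± 38.0 CPM (SD, n = 3) in SD mCherry, then HFD mCherry, HFD Tert and last HFD TertCi, so that SD mCherry was highest, overlapping HFD mCherry and HFD TertCi. The partner receptor Rxra was level, with group means from 49.7 to 56.1 CPM, and Lpcat3, which remodels membrane phospholipids, was at 65.0 ± 5.71 CPM in HFD mCherry and 86.0 ± 13.5 CPM in HFD TertCi (SD, n = 3).

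In cholesterol synthesis most genes leaned lower on the diet, with 17 of 22 log2 fold changes under 0 (54.1% of all genes). In HFD Tert 16 of the 22 were under 0 (53.8% of all genes) and in HFD TertCi 8 (52.6%). At an unadjusted p under 0.05, 2 of the 22 were higher and 2 lower on the diet (median log2 fold change −0.56). In HFD Tert 1 was higher and 2 lower (median −0.16), and in HFD TertCi 0 higher and 2 lower (median 0.10). These shares were near or under those of all genes. The transcription factor Srebf2 had group means from 124 to 156 CPM. Insig1, which holds the SREBP proteins in the endoplasmic reticulum, was at 132 to 254 CPM in HFD mCherry, with 65.5 to 94.2 CPM in HFD Tert and 62.0 to 136 CPM for HFD TertCi. Its log2 fold changes were −1.13 ± 0.37 and −0.93 ± 0.37 (SE, edgeR adjusted p 0.224 and 0.286), and with the macrophage level as a covariate −1.56 and −1.36.

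Among 16 genes of lysosomal and intracellular cholesterol handling, 4 were higher and 1 lower on the diet, 2 higher and 6 lower in HFD Tert, and 2 higher and 5 lower in HFD TertCi (all genes 14.1% higher on the diet, 9.75% and 8.92% lower in the knock-in groups). Lipa, the lysosomal acid lipase that frees cholesterol from lipoproteins, was at 27.1 to 65.7 CPM in SD mCherry against 124 to 465 in HFD mCherry, with 29.7 to 108 in HFD Tert and 38.6 to 76.9 for HFD TertCi. Neither the diet groups nor HFD mCherry and either knock-in group overlapped. The log2 fold changes were 2.80 ± 0.66, −2.64 ± 0.66 and −2.72 ± 0.66 (SE, edgeR adjusted p 0.0727, 0.187 and 0.183), and DESeq2 called all 3. Nceh1, a hydrolase of stored cholesterol esters and thus the counterpart of Soat1, had 1.10 ± 0.34, −1.44 ± 0.34 and −1.46 ± 0.34 (SE, edgeR adjusted p 0.104, 0.187 and 0.173). Npc1, which passes cholesterol out of lysosomes, was at 41.1 ± 12.1, 86.4 ± 28.5, 48.8 ± 20.8 and 42.8 ± 12.8 CPM (SD, n = 3) in the 4 groups in order. Cyp27a1, which makes the LXR ligand 27-hydroxycholesterol, was at 43.0 to 59.2 CPM in HFD mCherry and 30.5 to 35.1 CPM in HFD TertCi.

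Of the 12 lipoprotein uptake receptors, 4 were higher and 0 lower on the diet, 0 higher and 3 lower in HFD Tert, and 0 higher and 4 lower in HFD TertCi, beside the same 14.1%, 9.75% and 8.92% of all genes. The scavenger receptors Cd36 and Msr1 had diet log2 fold changes of 3.21 ± 0.71 and 3.09 ± 0.73 (SE, edgeR adjusted p 0.0685 and 0.0727), and DESeq2 called both. Cd36 was at 669 to 1862 CPM in HFD mCherry, and both knock-in groups overlapped it, at 256 to 1734 CPM in HFD Tert and 519 to 816 in HFD TertCi. Msr1, a macrophage gene, was at 6.92 to 7.86 CPM in SD mCherry against 28.1 to 89.5 in HFD mCherry, with 5.02 to 30.5 in HFD Tert and 7.80 to 26.9 for HFD TertCi. Vldlr, a MYLIP substrate, was at 37.7 to 43.1 CPM in SD mCherry and 43.3 to 48.6 CPM in HFD mCherry. It was lower in every knock-in library, at 22.8 to 33.6 CPM in HFD Tert and 12.2 to 36.3 CPM in HFD TertCi. Every knock-in library thus lay under every mCherry library, as for 0.67% of all genes. These are RNA levels, and a link to Mylip, whose product acts on receptor protein, was not tested. Lrp8, another MYLIP substrate, had group means of 3.27 to 6.56 CPM.

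**Figure D4:**
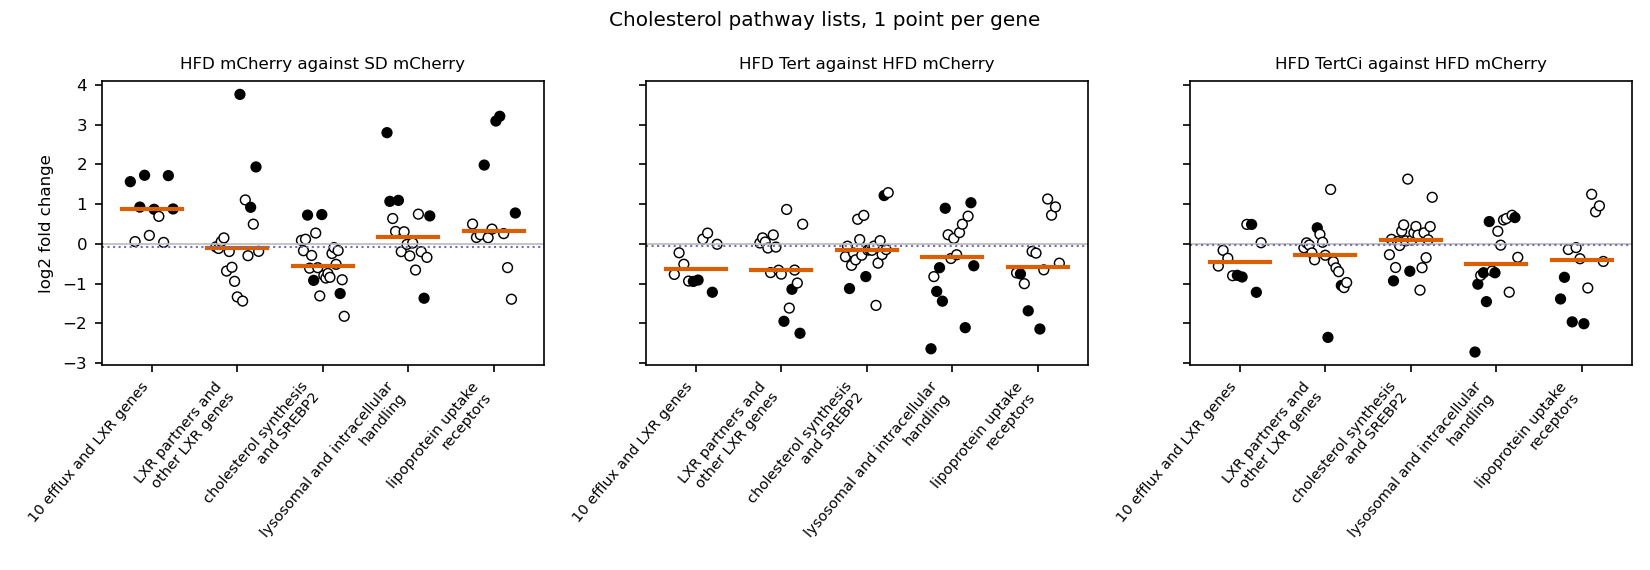
Log2 fold change (y axis) of each gene of the 10 and of the 4 cholesterol lists (x axis) in 3 comparisons (panels). Points are genes, filled where the unadjusted p is under 0.05, orange bars are list medians and the dotted line is the median of all genes tested. In the diet panel all 10 efflux and LXR genes are above 0 (median 0.88) and the synthesis list has its median at −0.56.

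Per kilobase of exon the 10 genes covered a wide range of levels. Apoe was at 711 to 1370 CPM per kb as group means, Pltp at 63.3 to 208, and Ch25h at 30.2 to 68.6. Abca1 (19.8 to 37.7), Nr1h2 (32.5 to 38.0), Mylip (23.3 to 33.6) and Scarb1 (10.3 to 19.3) were in the middle. Nr1h3 (4.48 to 13.3), Soat1 (4.98 to 9.37) and Abcg1 (2.48 to 8.22) were the 3 with the lowest values. Lengths are those of all annotated exons merged, so genes with rarely used exons are understated.

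The genes whose log2 CPM resembled each of the 10 most closely over the 12 libraries, which share groups and cell make-up, were listed as a description by Pearson's r. For Abcg1 these were Fcer1g, Lgmn and Cyth4 (r 0.982, 0.982 and 0.977), for Pltp Tbxas1, Apbb1ip and Grn (0.987, 0.987 and 0.986), and for Abca1 Jdp2, Mdfic and Tcirg1 (0.975, 0.974 and 0.972). Nr1h3 was most like Flcn, Snx8 and Hexa (0.986, 0.979 and 0.976) and Soat1 most like Mitf, Dennd4b and Kcnab2 (0.974, 0.973 and 0.970). Apoe was nearest to Zfp513, Mfsd11 and AI467606 (0.953, 0.938 and 0.914), and Nr1h2 to AI429214, Fndc9 and Prr11 (0.917, 0.903 and 0.878). Ch25h was nearest to Ddx54, Gadd45b and Btg1 (0.962, 0.956 and 0.953), Mylip to Hace1, Siva1 and Ddx10 (0.941, 0.908 and 0.905) and Scarb1 to Crlf2, Mmp13 and Kif4 (0.954, 0.934 and 0.908). The lists of the 10 genes held no gene in common.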

How the data were processed

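For every library the authors deposited raw counts of reads, 1 whole number beside each of 24422 gene names. RNA was poly-T selected and primed with random hexamers, per the labels' protocols. Subread, SAMtools and featureCounts 1.6.4 with genome mm10 are named in the submitters' processing notes; which tool aligned the reads, with what gene models and whether strand was used is not given in the sources used here. The deposited counts were used unchanged, and 0 features lacked a name. Groups and replicate numbers come from the sample labels.

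In R 4.3.3 with edgeR 4.0.16, genes were kept by filterByExpr (minimum count 10, minimum total 15, leaving 16713), scaled by TMM (factors 0.854 to 1.15) and fitted in 1 robust quasi-likelihood model with a mean for each of the 4 groups (8 residual degrees of freedom, common biological coefficient of variation 0.536). Tests were 2-sided, with Benjamini-Hochberg adjustment over all 16713 genes in each of 4 comparisons and an F-test. A gene was called at an adjusted p under 0.05. CPM values use the TMM-scaled library size, and log2 CPM for likeness and covariates adds a prior count of 2. The code was tested on simulated data. Alternatives were DESeq2 1.42.0, limma 3.58.1 (voom), other scalings, no filter, only the groups compared, marker levels as covariates and leaving out each library. Added after seeing the data were the 8 libraries with Crisp1 over 100 CPM, Crisp1 presence as a term, and Apoe against SD mCherry.

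The 10 genes, the 4 pathway lists and the 10 cell type lists were chosen with earlier results of these data known. Genes named are the 10, pathway genes chosen by role (16, of which 2 are not reported here), any other pathway gene called by edgeR (none was), and the 3 genes most like each of the 10. The cell type lists not fully described with the results were as follows: lipid-associated macrophage markers had 8 of 10 genes higher on the diet and 8 lower in each knock-in group at an unadjusted p under 0.05, while adipocyte markers had 3 higher and 2 lower on the diet (edgeR called Cfd, lower), neutrophil markers 2 higher and 1 lower, and lymphocyte and skeletal muscle markers 0 in any comparison. Of the 10 epididymal markers tested, 1 was higher and 0 lower on the diet at that threshold. In HFD Tert 0 were higher and 4 lower (9.75% of all genes lower), and in HFD TertCi 0 higher and 1 lower (8.92%). Coordinates are from GENCODE M21 (GRCm38, mm10) and promoter letters from RefSeq GRCm38.p6. Abcg1 and Scarb1 have no promoter window here.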

Additional observations from a re-analysis of the deposited data

How the results depend on the processing

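Of 704 values of the 10 genes under other settings, 670 kept the direction of the reported value, as did 477 of 484 for the other named genes. The 10 genes had calls only under some settings. DESeq2 called 3 of them for the diet, 1 in HFD Tert and 1 in HFD TertCi. Its likelihood ratio test over the 4 groups, used in place of the F-test, called 3. The epididymal covariate gave 5, 3, 2 and 4, among 1407, 802, 420 and 958 genes called in all, and Crisp1 presence as a term gave 4 for the diet and 1 in the F-test, among 1508 and 280. Leaving out single libraries gave 0 to 4 calls for the diet and 0 to 1 in the F-test. EdgeR called 0 of the pathway genes. For the diet DESeq2 called 2 of the synthesis list lower. It called 3 of the uptake list, 1 of the LXR list and 3 of the lysosomal list higher. In HFD Tert it called 2 uptake genes lower and 6 lysosomal genes, 2 higher and 4 lower. In HFD TertCi it called 1 uptake and 2 lysosomal genes lower. Of all genes, DESeq2 called 8.5% higher on the diet, 3.26% lower in HFD Tert and 2.94% lower in HFD TertCi. With the epididymal covariate the calls were 3 uptake, 1 LXR and 4 lysosomal genes for the diet, 2, 1 and 4 in HFD Tert and 3, 1 and 3 in HFD TertCi. With Crisp1 presence as a term they were 1 synthesis, 3 uptake, 1 LXR and 3 lysosomal gene calls for the diet. Leaving out single libraries gave 0 to 2 synthesis, 0 to 4 uptake, 0 to 2 LXR and 0 to 4 lysosomal calls for the diet, 0 to 1 lysosomal in HFD Tert, and 0 to 1 uptake and 0 to 2 lysosomal in HFD TertCi. The highest of each of these ranges came without HFD mCherry replicate 15.

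The macrophage covariate reversed the most log2 fold changes. For HFD Tert and HFD TertCi it gave 0.33 and 0.38 for Abca1, 0.40 and 0.51 for Abcg1, 1.32 and 1.27 for Nr1h3, 0.14 and 0.065 for Pltp, 0.29 and 0.25 for Soat1, 0.77 and 0.34 for Lpl, and 0.16 and 0.31 for Msr1. It gave 0.36 for Scarb1 in HFD Tert and 0.15 for Npc1 in HFD TertCi. For the diet it gave −1.30 for Ch25h, −0.22 for Mylip, −0.052 for Nceh1, −0.34 for Npc1, −0.74 for Nr1h3 and −0.44 for Soat1. The covariate is itself measured from these libraries and moves with the groups, so its fit removes what the genes share with the markers; the cause was not tested. Scaling by total count only gave −0.18 for Mylip and −0.16 for Nr1h2 for the diet and 0.081 for Scarb1 in HFD Tert. The epididymal covariate gave −0.016 for Mylip for the diet and −0.017 for Ch25h in HFD Tert, and the 8 libraries with Crisp1 gave −0.046 for Ch25h in HFD Tert and −0.067 for Nr1h2 for the diet. Leaving out single libraries gave Ch25h −0.37 to 0.43 in HFD Tert and −0.19 to 0.80 for HFD TertCi, Mylip from −0.028 to 0.11 and Nr1h2 from −0.0064 to 0.11 for the diet, and Scarb1 −0.32 to 0.12 in HFD Tert and −0.12 to 0.12 for HFD TertCi.

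No paired analysis was possible because no replicate number occurs in more than 1 group. With 3 libraries a group and the spread seen here, a call by edgeR needed a large and even difference. All comparisons with HFD mCherry share its 3 libraries. Counting depth does not limit the 10 genes, whose lowest count in a library was 100.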
